A study of Mus musculus with 6 samples.

Results

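Host genes of small nucleolar RNAs (snoRNAs) and microRNAs that are themselves long non-coding RNAs (lncRNAs) were followed across 6 RNA sequencing libraries of mouse pituitary. Members were chosen by name: Gas5, Zfas1, Dancr, every gene called Snhg with a number (small nucleolar RNA host gene) and every gene called Mir with the ending hg (microRNA host gene). This gave 34 genes of the 50348 gene names in the tables, 20 of them snoRNA hosts and 14 of them microRNA hosts. All 34 had the biotype lncRNA in the annotation. A gene value was the sum of FPKM (sequenced fragments per kilobase of transcript, set against all mapped fragments) over its annotated transcripts of 200 nt or more, divided by 1 scaling factor per library. Snhg9 had only a transcript of 183 nt and so no value, which left 33 genes.

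The sorted libraries came from mice that carried a Cre transgene driven by a hormone gene, crossed to a YFP reporter at the ROSA locus. In such mice a cell stays fluorescent if it or a precursor expressed the driver, so the sort follows lineage as well as current expression. Cells were dispersed with collagenase and the fluorescent cells were taken by flow sorting. The adult sorted libraries were from animals of 7 weeks: Tshbcre-YFP (driver Tshb, the beta subunit of thyroid stimulating hormone; 42 glands pooled), Ghcre-YFP (driver Gh, growth hormone; 12 glands) and Lhbcre-YFP (driver Lhb, the beta subunit of luteinizing hormone; 7 glands). A Tshbcre-YFP library was also made at postnatal day 7 (P7) from 5 glands. The comparison libraries were all pituitary cells of nontransgenic mice, prepared from 1 adult gland and from a pool of 8 P7 glands. The extraction protocol given with these nontransgenic samples also names sorting of the fluorescent fraction, while their cell type label names all pituitary cells; they are treated as whole glands here, and whether they were dispersed or sorted is not settled by the labels. No nontransgenic sorted library and no transgenic whole gland was part of the design, so the transgenes, dispersal and sorting cannot be told apart from the cell type. RNA was depleted of ribosomal RNA, which keeps lncRNAs with and without a poly(A) tail. With a single library per group there were no replicates, and none of the differences below could be tested. The sex of the animals was not stated in the labels.

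A host lncRNA is transcribed as a long precursor. In snoRNA hosts the snoRNAs lie in introns, are trimmed out after splicing and go into ribonucleoproteins that guide modification of ribosomal RNA, while the spliced exons remain as the lncRNA. Spliced Gas5 is a well known target of nonsense-mediated decay, the pathway that removes RNAs with an early stop codon as they are translated, and belongs to the transcripts with a 5′ terminal oligopyrimidine start, whose use by ribosomes depends on growth signals. In microRNA hosts, the enzyme Drosha cuts hairpins out of the precursor, and Dicer trims them to mature microRNAs.

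Depth, relative to the adult whole gland, ran from 1.15 in the P7 Tshbcre library to 2.73 in the Ghcre library. The Ghcre table had 1048576 lines and ended within chromosome 5, so 27 of the 33 hosts were measured in it, and Dancr, Snhg5, Snhg14, Mir100hg, Mir9-3hg and Mirc35hg were not. The scaled FPKM of Tshb was 1074 in adult and 3002 in P7 Tshbcre cells, against 33.1 and 61.1 in the adult and P7 whole glands. Lhb stood at 2901 in the adult Tshbcre library, above its 2196 in the Lhbcre library, so gonadotrope transcripts were abundant in both. Transcripts of other hormone cells were abundant as well: Gh stood at 14790 in adult Tshbcre and 3872 in P7 Tshbcre, and Prl, the hormone of lactotropes, at 6539 in adult Tshbcre, all above Tshb in the same library. Gh is not listed in the Ghcre table, so the driver could not be checked there. In bulk RNA, fewer cells of a type and less RNA per cell cannot be told apart.

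Sequence at the annotated start was read first, because an oligopyrimidine start is the feature that ties Gas5 to the translation machinery. RefSeq promoters of the older build GRCm38.p6 were found for 29 of the 34 hosts. A start was counted when the first transcribed base was C and at least 4 further bases in a row were C or T, on the strand of the gene only. By this rule 3 of 18 snoRNA hosts with a promoter (16.7%) and 1 of 11 microRNA hosts (9.09%, Mir217hg) had such a start, against 813 of 27025 genes in all (3.01%) and 4 of 19 genes with a promoter in a list of translation genes (21.1%). The 3 snoRNA hosts were Gas5 (chr1:161035141-161035190, plus strand), Snhg7 (chr2:26640220-26640269, minus strand) and Snhg8 (chr3:123508312-123508361, minus strand). They are shown with Snhg20 (chr11:117076758-117076807, plus strand) and Snhg11 (chr2:158375688-158375737, plus strand), the steadiest and the most variable of the well measured hosts below, whose starts lack it. Each window holds 25 bases before the start and 25 from it, and capitals mark the run of pyrimidines that begins at the start.
Gas5: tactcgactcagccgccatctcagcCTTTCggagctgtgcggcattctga
Snhg7: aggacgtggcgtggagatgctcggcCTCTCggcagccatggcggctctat
Snhg8: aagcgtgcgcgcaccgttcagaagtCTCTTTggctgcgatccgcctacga
Snhg20: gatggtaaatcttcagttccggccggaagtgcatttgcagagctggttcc
Snhg11: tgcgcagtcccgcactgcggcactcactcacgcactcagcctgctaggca
Gas5 has a second annotated start upstream, at a G, without the run. A match describes letters at an annotated start and is no measurement of use.

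The microRNAs carried by the hosts were read from RefSeq for 21 of 29 nested genes with a Mir name and for Gm51285, as 42 mature sequences. Among these 42 sequences no seed (bases 2 to 8, in capitals) was found in more than 1 host. None was read for Mir124a-1, Mir124a-2, Mir133a-1, Mir133a-2 or Mir1a-2. Hosts that carry copies of the same microRNA could therefore not be compared. A selection of 7 is shown: from Mir100hg and Mir22hg, the microRNA hosts that were apart in a comparison below, from Mirc35hg, whose seeds resemble each other, and from Mir17hg, host of the growth-associated cluster. Mir100hg carries the first pair, Mir22hg the next and Mirc35hg the last 3.
miR-100-5p: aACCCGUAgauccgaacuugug
miR-125b-5p: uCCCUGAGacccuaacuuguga
miR-22-3p: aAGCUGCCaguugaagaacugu
miR-92a-3p (Mir17hg): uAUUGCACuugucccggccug
miR-182-5p: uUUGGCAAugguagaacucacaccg
miR-96-5p: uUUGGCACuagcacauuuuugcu
miR-183-5p: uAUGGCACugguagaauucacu
Within Mirc35hg the seeds of miR-182-5p and miR-96-5p differ in their last base.

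Of the 33 hosts, 22 reached 1 scaled FPKM in at least 1 library: 17 of 19 snoRNA hosts and 5 of 14 microRNA hosts. The other 11 stayed under 1 throughout. Between 12 (adult Tshbcre) and 17 (P7 whole) hosts stood at 1 or more in a library. Gas5 alone made up from 21.5% (P7 whole) to 50.7% (Ghcre) of the summed level of the hosts. A listed 0 was not taken as absence, since a gene that every cell uses was also listed at 0: Rplp0, which encodes a ribosomal protein, stood at 0 in the Lhbcre library and at 49.9 or more in every other library that lists it. Among the hosts that reached 1 somewhere, 19 of 128 values were 0. In all 19 the same file held unnamed assembled transcripts in the locus of the host, of 200 nt or more in 17. Most values above 0 had unnamed transcripts in the locus as well, so their presence does not set the zeros apart. Because a listed 0 was not taken as absence, fold changes against it are not given.

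**Figure D1:**
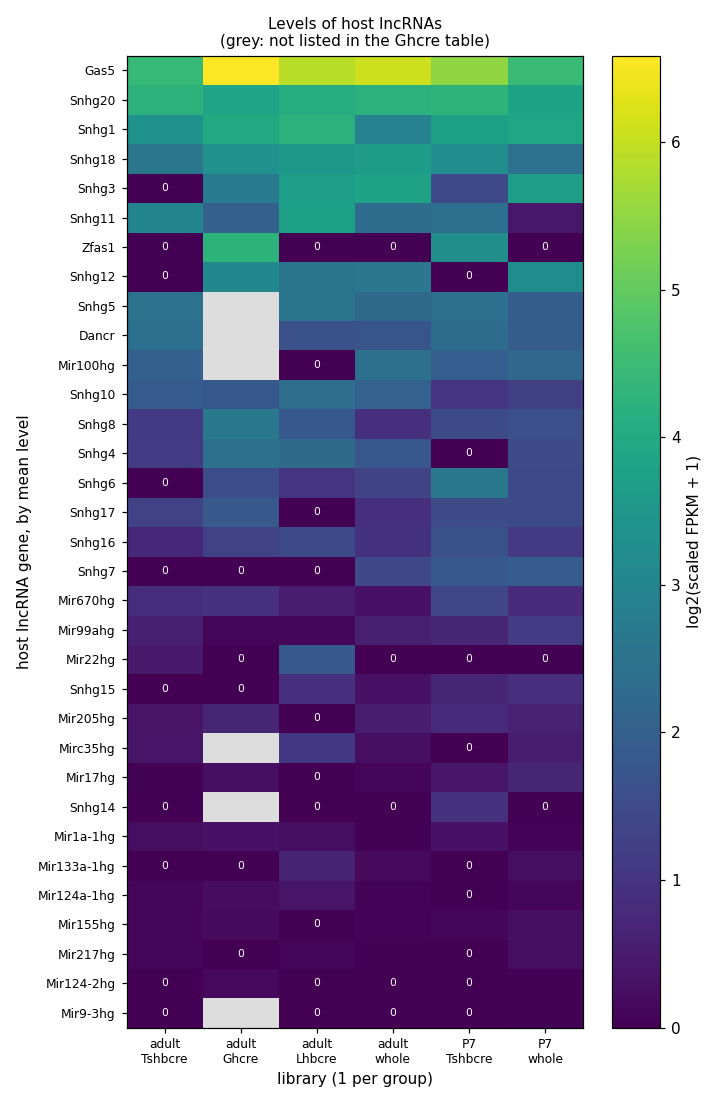
Level of each of the 33 hosts with a transcript of 200 nt or more (rows, ordered by mean) in the 6 libraries (columns), as log2(scaled FPKM + 1). White zeros mark values listed at 0 and grey marks genes past the end of the Ghcre table; Gas5 is the brightest row, and the microRNA hosts fill most of the dark lower rows.

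Gas5 (growth arrest specific 5; mm39 chr1:160862171-160866109, plus strand) holds 8 annotated small RNAs in its introns, Snord47 among them. It was the most abundant host in every library from annotated transcripts, and also with unnamed transcripts of the same Cufflinks gene identifier added. With those that overlap a locus added instead, this did not hold (Mir670hg, below). From annotated transcripts the level of Gas5 was 20.2 scaled FPKM in the adult Tshbcre library, 95.02 in Ghcre, 57.8 in Lhbcre and 66.7 in the whole adult gland. At P7 it was 44.3 in the Tshbcre library and 21.6 in the whole gland. The adult Tshbcre library and the P7 whole gland were thus the low pair, and their deposited bounds (17.4 to 24.3 and 19.0 to 25.1) overlapped each other and none of the other libraries. With unnamed transcripts of the same Cufflinks gene identifier added, the levels were 48.5, 190.1, 134.6 and 196.3 in the adult libraries and 73.2 and 63.0 in P7 Tshbcre and P7 whole. The adult Tshbcre bounds (43.2 to 55.1) then lay below those of the P7 whole gland (56.5 to 70.4), which overlapped P7 Tshbcre (65.3 to 82.3). In 5 libraries a 460-nt isoform carried the whole level. At P7 the Tshbcre library split it into 28.7 on that isoform and 15.6 on a 501-nt isoform. Gas5 overlaps Zbtb37, and the strand setting of the counting was not stated, so reads of the overlap cannot be told apart.

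Snhg20 (chr11:116967609-116969781, plus strand), which holds Mir6516, was the steadiest of the abundant hosts. It stood at 17.8, 13.3, 16.1 and 17.9 scaled FPKM in adult Tshbcre, Ghcre, Lhbcre and whole, and at 18.5 and 13.1 in P7 Tshbcre and P7 whole. No comparison reached 2-fold, and the file held no unnamed transcript of 200 nt or more with its identifier.

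Snhg1 (chr19:8700851-8703690, plus strand), among the first snoRNA hosts described, holds 8 annotated small RNAs around a spliced product of 476 nt. Its level was 9.35, 15.1, 17.7 and 6.61 in adult Tshbcre, Ghcre, Lhbcre and whole, and 12.4 and 13.8 in P7 Tshbcre and P7 whole. The adult whole gland was the lowest, and Ghcre and Lhbcre were the highest. That order did not last when unnamed transcripts with the same Cufflinks gene identifier were added: the same 6 libraries then stood at 30.6, 15.1, 17.7, 16.8, 54.1 and 38.7.

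Snhg11 (chr2:158217633-158228394, plus strand) is known mainly from neurons and has a long spliced product of 6118 nt. It stood at 6.85, 3.03, 12.1 and 4.06 in adult Tshbcre, Ghcre, Lhbcre and whole, and at 4.32 and 0.340 in P7 Tshbcre and P7 whole. The P7 whole gland was far below all other libraries and Lhbcre above all, with no overlap of deposited bounds at either end. Adding unnamed transcripts of the same identifier changed only the P7 whole gland, to 0.606. The adult whole gland and the P7 Tshbcre library, neighbours in the order, had bounds that overlapped (3.84 to 4.28 and 4.09 to 4.54).

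Snhg18 (chr15:32240714-32244808, minus strand), host of Snord123, stood at 5.06, 9.15, 10.4 and 11.5 in adult Tshbcre, Ghcre, Lhbcre and whole, and at 8.31 and 4.57 in P7 Tshbcre and P7 whole. As with Gas5, the adult Tshbcre library and the P7 whole gland were lowest, and their bounds (4.55 to 5.57 and 4.10 to 5.05) overlapped. Adding unnamed transcripts of the same identifier raised Ghcre to 18.9, the highest, and P7 whole to 5.58, and left that pair lowest. With unnamed transcripts that overlap the locus added instead, P7 whole stood at 10.5, above P7 Tshbcre (8.31) and Lhbcre (10.4).

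**Figure D2:**
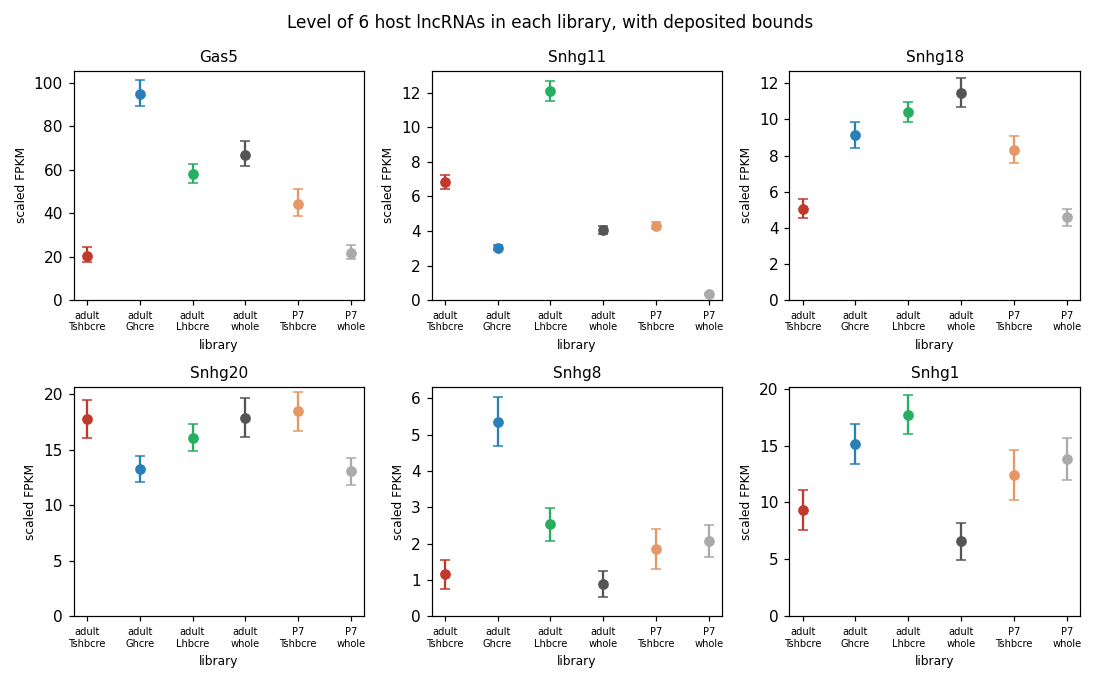
Scaled FPKM (vertical axes, from 0) of Gas5, Snhg11, Snhg18, Snhg20, Snhg8 and Snhg1 in each library; bars are the deposited bounds, which cover reads within a library only. Gas5 and Snhg18 are lowest in adult Tshbcre and P7 whole, Snhg11 is near 0 only in P7 whole, and Snhg20 stays between 13.1 and 18.5.

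From annotated transcripts, Snhg5 and Dancr varied little in the 5 libraries that list them. Snhg5 (chr9:88403105-88404950, minus strand) stood at 4.48 in adult Tshbcre, 4.90 in Lhbcre and 3.88 in the adult whole gland, and at 4.27 and 2.81 in P7 Tshbcre and P7 whole. With unnamed transcripts of the same identifier added, Snhg5 stood at 6.95, 4.90 and 9.29 in the same adult libraries. Its P7 values became 17.4 in Tshbcre and 10.7 in the whole gland. P7 Tshbcre then lay 1.21 above adult Tshbcre on the log2(scaled FPKM + 1) scale. Dancr (chr5:74253721-74254998, plus strand), a host of Snora26 known for holding back differentiation, stood at 4.32, 2.11 and 2.29 in adult Tshbcre, Lhbcre and whole, and at 4.03 and 2.85 in P7 Tshbcre and P7 whole. Both Tshbcre libraries were above the other 3 for Dancr. Their bounds (3.23 to 5.45 in adults and 3.16 to 4.97 at P7) overlapped those of the P7 whole gland (2.02 to 3.68). The difference from the whole gland of the same age was under 2-fold. It was 0.69 in adults and 0.38 at P7 on the log2(scaled FPKM + 1) scale.

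Snhg8 (chr3:123301201-123301985, minus strand), host of Snora24, stood at 1.16, 5.36, 2.54 and 0.879 in adult Tshbcre, Ghcre, Lhbcre and whole, and at 1.86 and 2.07 in P7 Tshbcre and P7 whole. Ghcre was highest, with bounds (4.69 to 6.04) above those of every other library. With unnamed transcripts of the same identifier added it stood at 20.8 (18.5 to 23.0) in Ghcre and 18.7 (16.7 to 20.7) in Lhbcre, whose bounds overlapped, against 8.23 in adult Tshbcre, 3.38 in the adult whole gland, 7.10 in P7 Tshbcre and 4.88 in P7 whole. Lhbcre then lay 2.17 above the adult whole gland on the log2(scaled FPKM + 1) scale, against 0.91 from annotated transcripts.

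Zfas1 (chr2:166904854-166907782, plus strand), transcribed next to and opposite Znfx1 and host of Snord12, was present or listed at 0 with nothing between. Its level was 18.0 in Ghcre and 8.56 in P7 Tshbcre, and it was listed at 0 in the other 4 libraries. Its locus overlaps Znfx1, which stood between 4.86 and 9.33 in all 6 libraries.

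Snhg3 and Snhg12 lie close together on chromosome 4 and were each listed at 0 in the adult Tshbcre library. Snhg3 (chr4:132079244-132080997, minus strand) hosts Snora73a and Snora73b, which act in cleavage of the ribosomal RNA precursor. Its level was 0, 5.45, 11.7 and 12.9 in adult Tshbcre, Ghcre, Lhbcre and whole, and 1.75 and 11.6 in P7 Tshbcre and P7 whole. Snhg12 (chr4:132035989-132038335, plus strand), with 4 snoRNAs, stood at 0, 7.48, 4.75 and 5.09 in the same adult libraries and at 0 and 8.28 in P7 Tshbcre and P7 whole. Both were thus low or at 0 in the Tshbcre libraries of both ages when only annotated transcripts were read.

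The order of Snhg3 and Snhg12 turned when unnamed transcripts of the same identifier were added. Snhg3 then stood at 16.8 and 24.6 in adult and P7 Tshbcre, above the 12.9 and 11.6 of the whole glands. Snhg12 stood at 15.6 and 22.5, above 8.37 and 8.28. The cause of the turn was not tested.

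The remaining named snoRNA hosts were at lower levels. Snhg6, host of Snord87, stood at 0, 1.96, 1.02 and 1.53 in adult Tshbcre, Ghcre, Lhbcre and whole, and at 5.19 and 1.79 in P7 Tshbcre and P7 whole. Snhg7, host of Snora17 and Snora43, was listed at 0 in all 3 adult sorted libraries and reached 1.71 in the adult whole gland, 2.43 in P7 Tshbcre and 2.79 in P7 whole. Snhg4, host of Snora74a, stood at 1.20, 4.43, 3.81 and 2.46 in adult Tshbcre, Ghcre, Lhbcre and whole, and at 0 and 1.86 in P7 Tshbcre and P7 whole. With unnamed transcripts of the same identifier added, no library was at 0 for any of these 3 hosts: the lowest values were 1.02 for Snhg6 (Lhbcre), 4.01 for Snhg7 (adult Tshbcre) and 1.86 for Snhg4 (P7 whole).

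**Figure D3:**
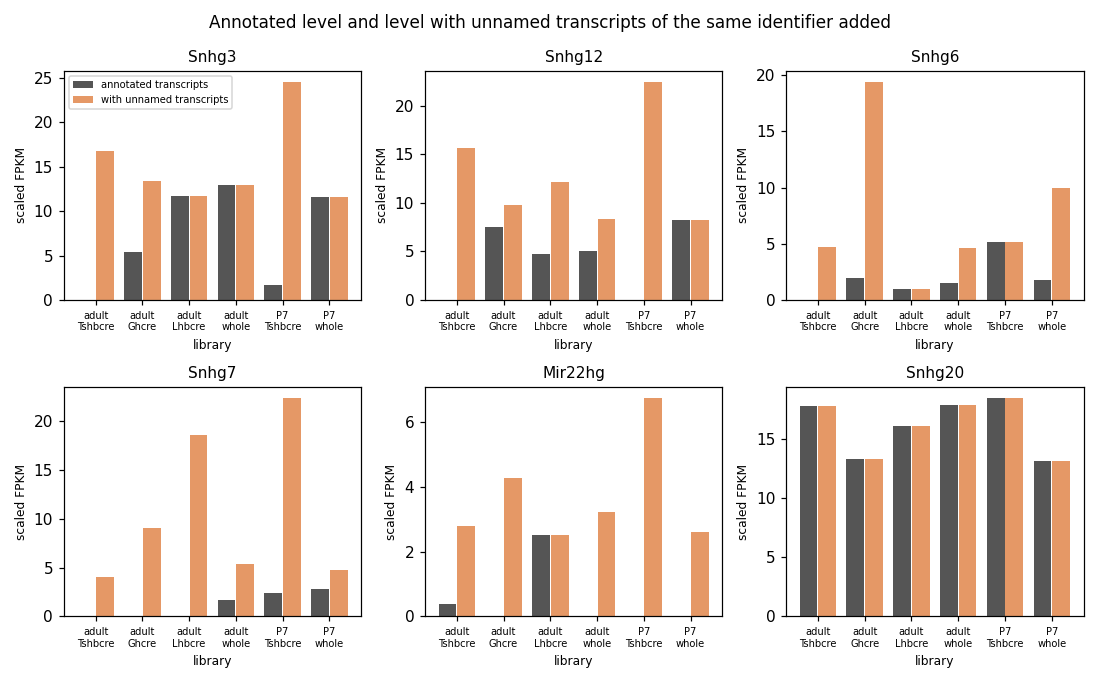
Scaled FPKM of Snhg3, Snhg12, Snhg6, Snhg7, Mir22hg and Snhg20 from annotated transcripts (dark) and with unnamed transcripts of the same Cufflinks gene identifier added (orange), by library. Every listed 0 of these hosts becomes a value above 0, and Snhg20 does not change.

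Hosts that were never 2-fold apart in any comparison are given by range. Snhg10 ran from 0.993 to 4.10, Snhg16 from 0.657 to 2.09 and Snhg17 from 0 to 2.57. Snhg15 and Snhg14 stayed under 1. Snhg14, the very long transcript that runs opposite Ube3a and is made from the paternal chromosome, was listed at 0 in 4 of 5 libraries and at 0.932 in P7 Tshbcre. Its locus spans 1177441 bases and other named genes, so its reads can belong to several models.

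From annotated transcripts, microRNA hosts were mostly at lower levels than snoRNA hosts. Mir100hg (chr9:41287822-41526481, plus strand), host of miR-100, miR-125b and a let-7 hairpin, was the highest. It stood at 3.05 in adult Tshbcre, 0 in Lhbcre, 4.37 in the adult whole gland, 2.90 in P7 Tshbcre and 3.52 in P7 whole. Its 0 in Lhbcre became 18.0, the highest of the 5 libraries, with unnamed transcripts of the same identifier added. Mir22hg (chr11:75352365-75357516, plus strand), host of miR-22, stood at 0.371 in adult Tshbcre and 2.52 in Lhbcre and was listed at 0 in the other 4 libraries. With the addition it ran from 2.52 in Lhbcre to 6.74 in P7 Tshbcre, so Lhbcre went from highest to lowest.

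Of the other microRNA hosts, 3 reached 1 scaled FPKM, each in 1 library, and none was 2-fold apart. Mir670hg, host of miR-670 and miR-129, ran from 0.242 (adult whole) to 1.65 (P7 Tshbcre). With unnamed transcripts that overlap its locus added, Mir670hg stood above Gas5 in adult Tshbcre (152.6 against 29.25) and Ghcre (288.4 against 134.8). At P7 it did so in Tshbcre (132.4 against 114.3) and the whole gland (121.4 against 45.5). In Lhbcre and the adult whole gland it stood below Gas5 (8.95 against 98.2 and 39.5 against 196.3). Mir99ahg ran from 0.0700 (Ghcre) to 1.22 (P7 whole). Mirc35hg, host of the miR-183, miR-96 and miR-182 cluster known from sensory cells, ran from 0 (P7 Tshbcre) to 1.11 (Lhbcre). Mir17hg was highest in the P7 whole gland at 0.613 and stood at 0.310 in P7 Tshbcre, against at most 0.202 in the adult libraries; all of these values lie under the floor of 1. The other 8 microRNA hosts, among them those of miR-124, miR-9, miR-155 and miR-205, stayed under 1 throughout.

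The hosts were then compared between libraries. A host was counted as apart when log2(scaled FPKM + 1) differed by at least 1 (2-fold on that scale, on which low genes look closer than they are) and the higher library stood at 1 or more. Hosts under 1 in both libraries were not compared. The adult whole gland entered 4 of the 6 comparisons, and the adult Tshbcre, P7 Tshbcre and P7 whole libraries 2 each, so the comparisons are not independent of each other.

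The first question was how adult cells of the Tshb lineage differ from the whole gland. None of 16 hosts was higher and 6 were lower, namely Gas5, Snhg18, Snhg3, Snhg12, Snhg6 and Snhg7. Of all genes 17.7% were apart either way (7.72% higher, 10% lower), and of lncRNA genes 26.7%. Gas5 differed by -1.68 and Snhg18 by -1.04 on the log2 scale. The other 4 were listed at 0 in the Tshbcre library. Over hosts above 0 in both libraries, 2 of 12 were apart, beside 10.8% of all genes and 8.46% of lncRNA genes. The median difference of the 16 was -0.29, beside -0.02 over all genes. Over the 12 above 0 in both libraries it was 0.08, beside -0.02 over all such genes. Gas5 and Snhg18 stayed apart in the same direction with unnamed transcripts added by either rule, and the other 4 did not. For Snhg18 the addition by identifier changed neither library. The adult Tshbcre library held no unnamed transcript of 200 nt or more in the Snhg18 locus. Only the adult whole gland could gain, so the Snhg18 call could not weaken. With the addition by overlap 6 hosts were higher and 3 lower of 24, and 34.2% of all genes were apart. Of those genes 72.5% were higher, against 43.5% from annotated transcripts, so all genes moved in that direction as well. With the addition by identifier 1 host was higher and 3 lower of 20. Of all genes 12.7% were then apart, and 51.8% of those were higher.

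In the Ghcre library, 5 of 15 hosts were apart from the adult whole gland, 3 higher and 2 lower. Of all genes 25% were apart (10.4% higher, 14.6% lower), and of lncRNA genes 33.5%. Snhg8 was higher by 1.76 on the log2 scale, Snhg1 was higher by 1.08, and Zfas1 stood at 18.0 against a listed 0. Snhg3 was lower, with a difference of -1.11, and Snhg7 was listed at 0. Snhg8 and Zfas1 stayed apart with unnamed transcripts added by either rule. Snhg1, Snhg3 and Snhg7 did not, and the value of Snhg1 became -0.14. On deposited FPKM without scaling, Snhg1 was 0.59 higher and no longer apart. Over hosts above 0 in both libraries, 3 of 13 were apart, beside 17.3% of all genes and 16.3% of lncRNA genes. The median of the 15 was 0.33, beside -0.01 over all genes.

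In the Lhbcre library, 5 of 18 hosts were apart from the adult whole gland, 3 higher and 2 lower. Of all genes 25.7% were apart (13% higher, 12.8% lower), and of lncRNA genes 38.5%. Snhg11 was higher by 1.37 and Snhg1 by 1.299 on the log2 scale. Mir22hg was higher and Mir100hg and Snhg7 lower, each with a listed 0 in 1 library. Only Snhg11 stayed apart in the same direction with unnamed transcripts added by either rule. Neither library held such a transcript of 200 nt or more in the Snhg11 locus, so its value could not change. Snhg1 fell under 2-fold, at 0.08. Over hosts above 0 in both libraries, 2 of 15 were apart, beside 17.5% of all genes and 14% of lncRNA genes. The median of the 18 was 0.10, beside 0.02 over all genes. Genes that differ between the sexes moved with this comparison: Xist, made from the inactive X chromosome, stood at 29.4 in Lhbcre and 0.0600 in the adult whole gland, and the Y-linked Ddx3y at 0.0122 and 2.61. The part of sex in the difference of Snhg11 was not tested. Xist stood at 0.106 in the adult Tshbcre library, 62.6 in P7 Tshbcre and 17.1 in P7 whole.

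At P7, 7 of 20 hosts were apart between Tshbcre cells and the whole gland, 4 higher and 3 lower. Of all genes 25% were apart (10.7% higher, 14.2% lower), and of lncRNA genes 42.5%. Snhg11 was higher by 1.99 on the log2 scale, Snhg6 by 1.15 and Gas5 by 1.003, and Zfas1 stood at 8.56 against a listed 0. Snhg3 was lower, with a difference of -2.20, and Snhg12 and Snhg4 were listed at 0. Snhg11 and Zfas1 stayed apart with unnamed transcripts added by either rule. For Zfas1 neither library held such a transcript of 200 nt or more in the locus, so nothing could be added. Gas5 lay at the threshold: its difference was 0.48 on deposited FPKM, 0.21 with unnamed transcripts added by identifier and 1.31 with those added by overlap. Snhg3 turned to 1.02 and Snhg12 to 1.34 with the addition by identifier, and to 1.69 and 1.34 with the addition by overlap. Over hosts above 0 in both libraries, 4 of 17 were apart, beside 17.3% of all genes and 22.7% of lncRNA genes. The median of the 20 was 0.20, beside -0.0016 over all genes.

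Between whole glands, the P7 gland against the adult gland, 3 of 18 hosts were apart and all 3 were lower at P7. Of all genes 16.1% were apart (8.44% higher, 7.68% lower), and of lncRNA genes 29.6%. Over genes above 0 in both libraries the shares were 10.5% of all genes and 9.13% of lncRNA genes. No host with a listed 0 was among them. Snhg11 differed by -1.92, Gas5 by -1.58 and Snhg18 by -1.16 on the log2 scale. Snhg11 and Gas5 stayed apart with unnamed transcripts added by either rule, and Snhg18 moved to -0.92 when they were added by identifier. On deposited FPKM, Snhg18 was at -0.87 and Gas5 at -1.24. Snhg1 was 0.96 higher at P7, just under the threshold. The median of the 18 was -0.00062, beside 0.02 over all genes. Of 10 proliferation markers, all 10 were at least 2-fold higher at P7 (median 1.60), with summed levels of 77.8 against 18.0. Between ages in Tshbcre, 5 of 10 were higher and 0 lower at P7 (32.5 against 10.4), where Gas5 was higher as well (1.10). In P7 Tshbcre against P7 whole, 0 were higher and 5 lower of 10, with Gas5 higher (1.003). In adult Tshbcre against adult whole, 0 were higher and 1 lower of 6, with Gas5 lower (-1.68). Gas5 is known to accumulate in arrested cells. The part of these markers in the Gas5 differences was not tested.

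Between ages in the Tshb lineage, 6 of 18 hosts were apart, 5 higher and 1 lower at P7. Of all genes 21.7% were apart (10.8% higher, 10.9% lower), and of lncRNA genes 32.6%. Over hosts above 0 in both libraries, 1 of 13 was apart, beside 12.4% of all genes and 9.28% of lncRNA genes. Gas5 was higher at P7 by 1.10 on the log2 scale and was the only one of the 6 above 0 in both libraries. Snhg3, Snhg6, Snhg7 and Zfas1 were higher and Snhg4 lower, each against a listed 0. Gas5 moved to 0.58 when unnamed transcripts were added by identifier and to 1.93 when they were added by overlap. Zfas1 stayed apart under either rule, but neither library held an unnamed transcript of 200 nt or more in its locus to add. The median of the 18 was 0.39, beside 0.03 over all genes.

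**Figure D4:**
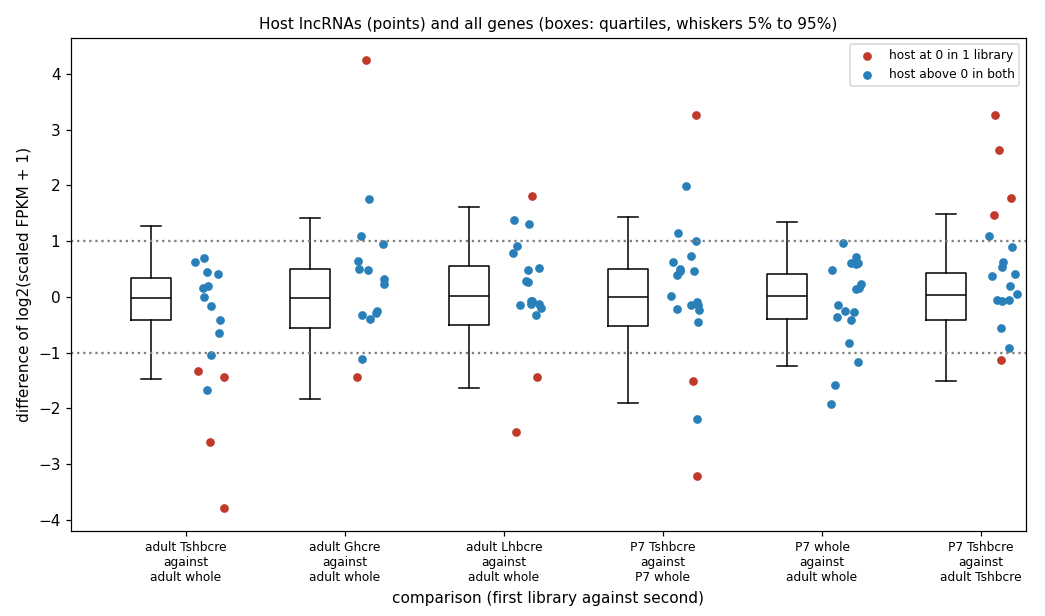
Difference of log2(scaled FPKM + 1) for each compared host (points) in the 6 comparisons, beside all genes (boxes show quartiles, whiskers 5% to 95%); dotted lines mark 2-fold. Red points rest on a listed 0 in 1 library, and most of the points past 2-fold in the first and last comparison are red.

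At 4-fold, the hosts apart numbered 2 of 16 in adult Tshbcre, 1 of 15 in Ghcre and 1 of 18 in Lhbcre, beside 4.61%, 6.41% and 6.42% of all genes. They numbered 3 of 20 in P7 Tshbcre against P7 whole, 0 of 18 in P7 whole against adult whole and 2 of 18 in P7 against adult Tshbcre, beside 6.82%, 3.92% and 5.65%. Each of these 4-fold calls rested on a listed 0, except Snhg3 in P7 Tshbcre against P7 whole. In the 6 comparisons there were 32 calls at 2-fold in 13 hosts, and 10 calls kept their direction and size class with unnamed transcripts added by both rules. They were Gas5 (adult Tshbcre and P7 whole, both against the adult whole gland), Snhg18 (adult Tshbcre), Snhg8 and Zfas1 (Ghcre), Snhg11 (Lhbcre, P7 Tshbcre against P7 whole, and P7 whole) and Zfas1 in both comparisons of P7 Tshbcre. The loci of Snhg11 (Lhbcre) and Zfas1 (both comparisons of P7 Tshbcre) held no unnamed transcript of 200 nt or more in the compared libraries. Nothing could be added there, so these calls could not change. For Snhg18 (adult Tshbcre) only the adult whole gland, the higher library, could gain, so that call could not weaken. The share of unnamed transcripts that reached 200 nt was 4.25% in Lhbcre and 65.8% in the adult whole gland, so the additions are uneven between libraries.

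Cell type markers differed between the same libraries. Endothelial markers were lower in the adult Tshbcre (11 of 12), Ghcre (7 of 7 listed), Lhbcre (9 of 12) and P7 Tshbcre (12 of 12) libraries than in the whole gland of the same age, and mesenchymal and pericyte markers were lower for 9 of 11, 9 of 9, 9 of 11 and 11 of 11. Summed endothelial levels were 2.21 to 46.4 in the sorted libraries and 139.3 and 155.7 in the whole glands, with Kdr and Tek at 0 in P7 Tshbcre and Cldn5 and Eng at 0 in Ghcre. Summed mesenchymal and pericyte levels were 6.37 to 34.4 in the sorted libraries, with Col3a1 at 0 in Ghcre and Lum at 0 in Lhbcre, and 163 and 319.8 in the adult and P7 whole glands. The Ghcre sums cover the listed markers only. Immune markers summed to 62.2 in the adult Tshbcre library and 5.12 in P7 Tshbcre. Their part in the host differences was not tested.

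Small RNAs annotated inside the hosts were counted in the same tables. There were 286 of them, 209 within Snhg14 and 77 in other hosts. Outside Snhg14, 30 of 48 without a Mir name were above 0 in at least 1 library, as were 2 of 29 with a Mir name. The 48 include Gm51272 and Gm51285, which have the biotype miRNA and were at 0 in every library that lists them. FPKM of features shorter than a sequenced fragment is only descriptive, so just the longer ones are named. Scarna13 (275 nt, in Snhg10), which guides modification of spliceosomal RNA, stood at 55.6, 573.1, 769.1 and 68.5 in adult Tshbcre, Ghcre, Lhbcre and whole, and at 13.7 and 33.6 in P7 Tshbcre and P7 whole. Its host Snhg10 stayed between 0.993 and 4.10. Snora73a (205 nt, in Snhg3) stood at 14.0, 194.8, 508.4 and 35.5 in the adult libraries in that order, and at 0 and 44.3 at P7. Its neighbour in the same host, Snora73b, ran from 35.0 to 140.1 and was highest in the adult whole gland. Ghcre and Lhbcre, the deepest libraries, thus had the highest Scarna13 and Snora73a, with no gap of that size in their hosts or in Snora73b; the part of depth was not tested.

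Genes of the pathways that use or make these RNAs were counted in the same way. Of 19 snoRNP protein genes, which package snoRNAs, at most 2 of the compared genes were apart in any comparison of a library with the adult whole gland, and 6 of 18 (2 higher, 4 lower) between P7 Tshbcre and P7 whole, and 5 of 17 between P7 and adult Tshbcre, where 25% and 21.7% of all genes were apart. Npm1 and Nop10, the most abundant, ran from 36.4 to 58.4 and from 11.6 to 25.1. Nolc1 (0 in P7 Tshbcre, 4.92 to 6.65 elsewhere) and Dkc1 (0 in P7 whole, 3.20 to 3.67 elsewhere) had the largest differences, each with a listed 0.

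Of 17 microRNA processing genes, 1 to 3 were apart in each comparison but P7 whole against adult whole, which had 0 of 14; the share over all genes ran from 16.1% to 25.7% in the 6 comparisons. The helicases Ddx5 (45.1 to 97.6) and Ddx17 (45.3 to 74.8) were the most abundant. Xpo5, which exports hairpins, was listed at 0 in Ghcre, and the Argonaute gene Ago2 at 0 in P7 Tshbcre. Of 17 genes of nonsense-mediated decay, 0 were apart in adult Tshbcre, the comparison in which Gas5 was lowest, beside 17.7% of all genes. Their median difference was -0.05. Upf1, the central helicase of the pathway, stood at 10.4 there and 16.1 in the adult whole gland. Between whole glands, 1 of 17 was apart, beside 16.1% of all genes, and the median was 0.08. In P7 Tshbcre, where Gas5 was higher, 3 of 17 were lower and 0 higher against P7 whole (median -0.15), beside 14.2% of all genes lower. Against adult Tshbcre 3 were likewise lower and 0 higher (median -0.00058), beside 10.9% of all genes lower. The part of these genes in the Gas5 differences was not tested.

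Translation genes of the oligopyrimidine class were set beside Gas5. In the comparisons below, 17.7%, 16.1% and 25% of all genes were apart, in that order. In adult Tshbcre against the whole gland, 0 of 35 were apart and their median was -0.27, beside -1.68 for Gas5. Between P7 and adult whole glands, 1 was higher and 1 lower of 35 with a median of 0.36, beside -1.58 for Gas5. In P7 Tshbcre against P7 whole, 0 were higher and 3 lower with a median of -0.36, beside 1.003 for Gas5. Eef1a1 and Eef2, the most abundant, ran from 338.7 to 611.1 and from 155.7 to 236.3. Protein-coding snoRNA hosts likewise had 0 higher and 2 lower of 24 in adult Tshbcre (median -0.10) and 1 of each of 23 between whole glands (median 0.30). Of 11 regulators in the mTOR and p53 pathways, 2 to 4 were apart in each comparison, beside 16.1% to 25.7% of all genes, with Larp1, which binds oligopyrimidine starts, between 4.51 and 13.1.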

How the data were processed

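RNA was measured in 6 mouse pituitary libraries, 1 per group, from 250 ng of RNA after ribosomal RNA depletion, per the labels' protocols. The deposited files are Cufflinks isoform tables; per the submitters' processing notes FastQC, Bowtie2 and Cufflinks were used with mm39 (versions not given). The authors computed FPKM per transcript with bounds; the deposited coverage signal, a constant multiple of FPKM in each file, gave relative depth. Read numbers, annotation and strand setting are not given in the sources used here.

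Gene values were summed and divided by median-of-ratios factors over 5734 genes that reached 1 FPKM in every library (0.757 to 1.42), with Python 3.11.15, pandas 2.3.3 and numpy 2.4.6, and checked on simulated data. A pseudocount of 1 was used. Values in every library are given for the 10 hosts with the highest mean and every host apart in a comparison; of pathway lists, up to 4 genes. Members and lists were chosen with earlier results of these data known. With 1 library per group, no test was made. Alternatives covered scaling, pseudocount, floor, zeros, transcript length, fold, bounds and unnamed transcripts; adding these by identifier and scaling without Ghcre were chosen after seeing the data. Gene loci are mm39, counted from 1; promoter and microRNA sequences, the promoter coordinates and biotypes are from GRCm38 tables.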

Additional observations from a re-analysis of the deposited data

Results flagged for a closer look

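Gas5 differed in opposite directions between the Tshbcre library and the whole gland at the 2 ages: -1.68 in adults and 1.003 at P7 on the log2(scaled FPKM + 1) scale. Seen the other way, Gas5 was lower at P7 in the whole gland (-1.58) and higher at P7 in the Tshbcre library (1.10). The same 4 libraries give both contrasts, so they are 1 pattern. With unnamed transcripts of the same identifier added, the values at P7 were 0.21 between Tshbcre and whole and 0.58 between ages in Tshbcre, neither 2-fold; with unnamed transcripts added by overlap they were 1.31 and 1.93, both past 2-fold. Snhg6 also went in opposite directions, at -1.34 in adults and 1.15 at P7; it was listed at 0 in the adult Tshbcre library, so the first value depends on the pseudocount. Each group was 1 library, and none of these differences between contrasts was tested.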

How the results depend on the processing

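No paired analysis was possible because each group was 1 library. Counts of hosts apart are given in the order adult Tshbcre, Ghcre and Lhbcre against adult whole, P7 Tshbcre against P7 whole, P7 against adult whole, and P7 against adult Tshbcre, where they were 6, 5, 5, 7, 3 and 6. With hosts above 0 in both libraries only, they were 2, 3, 2, 4, 3 and 1. At 4-fold they were 2, 1, 1, 3, 0 and 2, each with a listed 0 except Snhg3 in P7 Tshbcre against P7 whole. With unnamed transcripts added by overlap they were 9 (6 higher, 3 lower), 8 (7, 1), 13 (2, 11), 13 (8, 5), 11 (4, 7) and 10 (6, 4), of 19 compared in Ghcre and 24 in the others, where 34.2, 51.5, 50.1, 50.3, 33.6 and 41.3% of all genes were apart. Of all genes apart, 72.5, 85, 25.4, 56.8, 37.9 and 29.9% were then higher. From annotated transcripts those shares were 43.5, 41.6, 50.3, 43, 52.4 and 49.7%. The addition thus moved all genes as well as hosts, and the libraries were not scaled again after it. P7 against adult whole had 8 of 18 at a pseudocount of 0.1 (25.2% of all genes) and 6 of 23 with unnamed transcripts added by identifier (11.9%). Differences that changed sign with transcripts added by overlap were, in adult Tshbcre, Snhg3 at 0.14 and Snhg7 at 0.30; in Ghcre, Snhg1 at -0.14 and Snhg7 at 1.57; in Lhbcre, Mir22hg at -1.24 and Snhg7 at 0.71; and in P7 Tshbcre against P7 whole, Snhg12 at 1.34, Snhg3 at 1.69 and Snhg6 at -0.28. Those that changed sign when added by identifier were, in adult Tshbcre, Snhg12 at 0.83, Snhg3 at 0.36 and Snhg6 at 0.032; in Ghcre, Snhg1 at -0.14, Snhg3 at 0.052 and Snhg7 at 0.64; in Lhbcre, Mir100hg at 1.54, Mir22hg at -0.26 and Snhg7 at 1.61; and in P7 Tshbcre against P7 whole, Snhg12 at 1.34, Snhg3 at 1.02, Snhg4 at 0.14 and Snhg6 at -0.83. The cause was not tested. Without scaling, the median of all genes moved to -0.47 in Ghcre, -0.46 in P7 Tshbcre against P7 whole and 0.32 in P7 against adult whole, and the share of higher calls among all genes apart went from 41.6% to 19.2%, from 43% to 22.01% and from 52.4% to 71.7%. Depth in reads is unknown, so no counting limit could be given for a listed 0.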
